A study of Schizosaccharomyces pombe with 4 samples.

Results

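Newly made histone H3 was followed at ctt1 and atd1, a pair of stress-response genes of fission yeast (Schizosaccharomyces pombe), and their surroundings. The members are these 2 of 4600 protein-coding genes measured, described through 56 of the 41020 array probes used. The probes are the 25 in or within 2 kb of the ctt1 domain (chromosome III, 57300 to 60960 on the array's coordinates, 13 probes) and the 31 in or within 2 kb of the atd1 domain (chromosome I, 4448700 to 4454160, 19 probes). None of the 56 was lost to the filter on outlier spots. Both domains were chosen by measured values, namely the H3-T7 difference between tethered and untethered cells, which was not alike in the 2 genotypes, so all 4 arrays took part in the choice. Every value below is therefore a description and none is a test.

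All strains carried H3T7 and the temperature-sensitive allele cdc25-22. Cells grew at 26 °C and were held at G2/M for 4 h at 36 °C. β-Estradiol (1 µM, 2 h) then let Cre recombinase replace the HA tag of H3 by T7, so that only H3 made after the switch bears T7. The 4 groups are clr3-CDx2 ON, clr3-CDx2 OFF, wt ON and wt OFF, with 1 array each. ON cells had a tetO-ade6+ reporter and made TetR-Clr4 from a thiamine-repressible promoter during 20 generations without thiamine, which puts Clr4 at the tet operators. OFF cells were given 5 µg/ml thiamine and 2.5 µg/ml tetracycline, which stop production and binding of the fusion. ON and OFF cells thus differed in medium as well as in tethering, and these cannot be told apart here. Labels and protocols do not say what CDx2 changes in Clr3 or where tetO-ade6+ sits. Chromatin fixed with 1% formaldehyde and sheared to about 1000 bp was precipitated with an antibody to T7. Precipitated DNA was in Cy5 and whole-cell extract DNA (input) in Cy3, on 60-mer probes placed every 300 bp.

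Clr4 is the histone methyltransferase that marks H3 at lysine 9 in heterochromatin, and Clr3 is a histone deacetylase that acts on H3 there and keeps nucleosomes in place. ctt1 encodes catalase, which breaks down hydrogen peroxide. atd1 encodes an aldehyde dehydrogenase, an enzyme that oxidises reactive aldehydes to acids. Under stress the kinase Sty1 activates the transcription factor Atf1, and the AP-1-like factor Pap1 moves into the nucleus on exposure to peroxide, and the 2 factors drive genes such as ctt1. Nucleosomes are usually exchanged most at active promoters, which makes tagged new H3 a readout of histone turnover and deposition.

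The labels and headers name no genome build for the array's coordinates. Genes were taken from assembly ASM294v3 and laid on the array by matching input signal to GC content on each chromosome arm, at an offset of 140 bp for the left arm of chromosome III and 4540 bp for the right arm of chromosome I. Repeating the match in separate blocks of probes gave an SD of 135 bp and 155 bp for these arms, and the match near ctt1 alone lay 100 bp from that of its arm. Gene ends, and distances of single probes from a gene start, carry this uncertainty, so the probe given below as 13 bp upstream of atd1 may lie within the gene. In ASM294v3, ctt1 (SPCC757.07C) is on the minus strand at III:56654-58833, with its coding sequence at 56927-58465. atd1 (SPAC9E9.09C) is on the minus strand at I:4453280-4455657, with its coding sequence at 4453560-4455071. Each gene had 7 probes.

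The stretch between the start of each gene and the next annotated transcript is printed from the RefSeq copy of ASM294v3, 5′ to 3′ on the gene's strand. It is shown because the arrays part towards it at ctt1 and H3-T7 dips in or beside it at atd1. The ctt1 stretch is chrIII:58834-59096 (minus strand, 263 bp, 41.1% GC) and ends where cox14 ends. The atd1 stretch is chrI:4455658-4455877 (minus strand, 220 bp, 36.8% GC) and ends at the start of the noncoding SPNCRNA.989. Capitals mark the only matches, on either strand, to the letters searched, which were TGACGT and TTACGT (Atf1-type sites), TTAGTAA (the core that Pap1 binds) and GAANNTTC (the inverted repeat of a heat shock element).
ctt1 upstream: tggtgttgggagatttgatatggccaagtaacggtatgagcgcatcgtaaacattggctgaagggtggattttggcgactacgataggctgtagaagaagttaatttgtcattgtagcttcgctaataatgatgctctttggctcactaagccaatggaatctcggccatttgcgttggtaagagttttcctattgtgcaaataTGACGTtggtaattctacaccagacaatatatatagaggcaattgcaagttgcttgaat
atd1 upstream: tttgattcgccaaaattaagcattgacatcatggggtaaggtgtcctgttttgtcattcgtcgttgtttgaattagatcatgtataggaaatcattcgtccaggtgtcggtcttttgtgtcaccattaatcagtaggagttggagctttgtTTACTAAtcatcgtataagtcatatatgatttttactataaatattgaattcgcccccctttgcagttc
The ctt1 stretch holds TGACGT 54 bp from the gene start, and 5.67% of 5112 upstream stretches of the same length hold these letters. The atd1 stretch holds TTACTAA, the reverse complement of TTAGTAA, 63 bp from the gene start, as do 9.23% of upstream stretches of its length. A match of this kind is a description of the letters and says nothing on binding.

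Each probe's H3-T7 level is its Cy5-to-Cy3 ratio in log2, with the array median set to 0. All arrays lay on the same slide and gave median signals of 4442 to 7688 in Cy5 and 7066 to 13925 in Cy3, against local backgrounds of 54 to 64 and 37 to 43. With 1 array per group no spread between samples exists. SD below is the spread over probes of a gene or domain, which share an array and neighbouring fragments, and it says nothing of a repeat of the experiment. No array measured total H3, so fewer nucleosomes and less new H3 per nucleosome cannot be told apart.

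At ctt1 the H3-T7 level was high on every array. The gene averaged 0.83 ± 0.14 on clr3-CDx2 ON and 0.38 ± 0.29 on clr3-CDx2 OFF (SD over 7 probes). It averaged 0.56 ± 0.31 on wt ON and 0.77 ± 0.26 on wt OFF. The highest of these levels is 1.78 times the array median. Among 4600 protein-coding genes with at least 3 probes, ctt1 ranked 152 from the top on clr3-CDx2 ON, 524 on clr3-CDx2 OFF, 444 on wt ON and 32 on wt OFF. The lowest of the 4 levels is that of clr3-CDx2 OFF, and the 2 highest are those of clr3-CDx2 ON and wt OFF.

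The sign of the tethering difference at ctt1 was opposite in the 2 genotypes. ON minus OFF was 0.45 ± 0.28 in clr3-CDx2, with all 7 probes above 0. It was -0.21 ± 0.17 in wt, with all 7 probes below 0. These are differences of 1.37-fold upwards and 1.16-fold downwards, neither past the 1.5-fold (0.58 on the log2 scale) used here to call a gene. The gap between the genotypes was 0.66 ± 0.32, or 1.58-fold, which ranked 38 of 4600. By this measure 1.65% of all genes passed 1.5-fold upwards, and since the rule chose ctt1 by it, nothing is read from that share. The gap was 1.12 with normexp background correction, and 0.58, just under 1.5-fold, with genes moved by 100 bp to the left on the array. With normexp the clr3-CDx2 difference was 0.62 and past 1.5-fold, and the wt difference -0.51. The wt difference was -0.33 without detrending and -0.38 with arrays scaled to equal spread. A pattern of this shape, above 0 in clr3-CDx2, below 0 in wt and at least 1.5-fold apart, was met by 66 genes (1.43%). Nothing is read from this share either, for the same reason.

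Set between genotypes, the same 4 arrays gave a clr3-CDx2 minus wt difference of 0.27 ± 0.20 in ON cells, above 0 at all 7 probes. In OFF cells it was -0.39 ± 0.27, below 0 at 6 of 7 probes, and with normexp it was -0.69 and past 1.5-fold. These comparisons share arrays with the 2 above and are no further support for them.

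**Figure D1:**
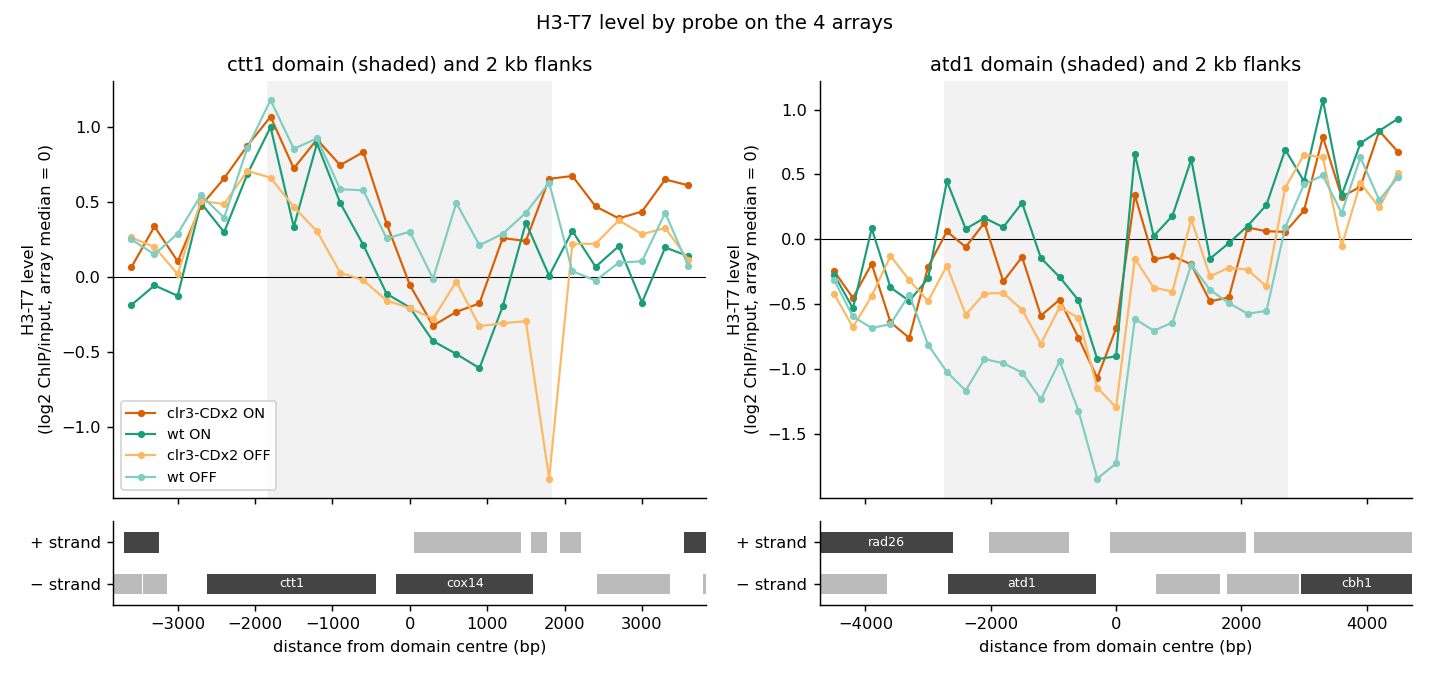
H3-T7 level (log2 of ChIP over input, array median 0) of each probe in the ctt1 (left) and atd1 (right) windows on the 4 arrays, against distance from the domain centre in bp. Shading marks the domains and bars below mark annotated genes, dark for protein-coding and light for noncoding. Towards the start of ctt1 the clr3-CDx2 OFF line lies lowest, and over atd1 the wt OFF line lies below the other 3 at all 7 probes.

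Along ctt1 the arrays parted towards the promoter. The 5 coding probes averaged 0.87 on clr3-CDx2 ON and 0.43 on clr3-CDx2 OFF, against 0.68 on wt ON and 0.88 on wt OFF. The probe in the 5′ leader read 0.83 on clr3-CDx2 ON and -0.02 on clr3-CDx2 OFF, against 0.21 on wt ON and 0.58 on wt OFF. ON minus OFF at this probe was 0.85 in clr3-CDx2 and -0.36 in wt, the widest gap among the ctt1 probes at 1.22. The probe 137 bp upstream of the gene start, within the stretch printed above, read 0.36 on clr3-CDx2 ON and -0.16 on clr3-CDx2 OFF, against -0.11 on wt ON and 0.26 on wt OFF. At the 3′ end, the 2 ctt1 probes that lie outside the domain had gaps of 0.27 and 0.34, lower than at any of the 5 inside it.

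The ctt1 domain is not ctt1 alone. Its 13 probes include 5 of ctt1 and all 6 of cox14, whose product helps assemble cytochrome c oxidase and whose transcript ends towards ctt1 (III:59097-60867). cox14 averaged -0.05 on clr3-CDx2 ON and -0.24 on clr3-CDx2 OFF, against -0.26 on wt ON and 0.29 on wt OFF. Its ON minus OFF difference was 0.19 ± 0.31 in clr3-CDx2, above 0 at 4 of 6 probes. In wt it was -0.55 ± 0.33, below 0 at all 6, for a gap of 0.74 ± 0.25. The clr3-CDx2 mean is smaller than its SD, so no opposite sign is read at cox14. Thus the wt part of the difference was larger in size over cox14 than over ctt1, and the clr3-CDx2 part larger over ctt1. SPNCRNA.453, a noncoding transcript antisense to cox14 whose signal cannot be separated from that of cox14 in double-stranded ChIP DNA, had -0.68 in wt and 0.12 in clr3-CDx2 over 4 probes.

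Over the domain the mean level was 0.39 ± 0.47 on clr3-CDx2 ON and -0.11 ± 0.48 on clr3-CDx2 OFF, against 0.10 ± 0.51 on wt ON and 0.52 ± 0.33 on wt OFF (SD over 13 probes). ON minus OFF was 0.50 ± 0.54 in clr3-CDx2 and -0.42 ± 0.29 in wt. All 13 probes were below 0 in wt, and 11 of 13 were above 0 in clr3-CDx2. The gap between genotypes was 0.92 ± 0.55, from 0.37 to 2.61. This domain was chosen by these contrasts, so nothing is read from the counts of probes. One probe stands apart. The last of the domain, 2237 bp upstream of ctt1, read 0.65 on clr3-CDx2 ON and -1.34 on clr3-CDx2 OFF, against 0.01 on wt ON and 0.63 on wt OFF. Its input (Cy3) was -0.70 on clr3-CDx2 ON and 0.82 on clr3-CDx2 OFF, so input and ratio moved in opposite directions there. Without it the domain gave 0.38 for clr3-CDx2 and -0.40 for wt, with a gap of 0.78 ± 0.23.

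At the edges of the ctt1 domain, the first probe inside had a gap of 0.59 and the last outside it 0.34. At the other edge the last probe inside had the 2.61 already given and the first outside 0.18. ON minus OFF averaged 0.05 in clr3-CDx2 and -0.23 in wt over the 6 probes of the flank on the 3′ side of ctt1, and 0.28 and 0.01 over the 6 of the flank towards rrp45, which encodes an exosome subunit. Within 20 kb either side, domain left out, 131 probes averaged 0.14 in clr3-CDx2 and 0.08 in wt. Opposite signs were thus met in the domain, which was chosen by this contrast. In the flank holding the end of ctt1 the clr3-CDx2 mean had an SD of 0.15, with 4 of 6 probes above 0. No opposite sign is read there.

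At atd1 the H3-T7 level was low, and lowest on wt OFF. The gene averaged -0.31 ± 0.31 on clr3-CDx2 ON and -0.55 ± 0.13 on clr3-CDx2 OFF (SD over 7 probes). It averaged -0.04 ± 0.27 on wt ON and -1.08 ± 0.16 on wt OFF, the last being 2.11-fold below the array median. Its rank from the top was 3814 on clr3-CDx2 ON, 4487 on clr3-CDx2 OFF, 2660 on wt ON and 4594 of 4600 on wt OFF. The wt OFF probes ran from -1.32 to -0.92, and the lowest probe on the other arrays was -0.80. The share of all genes with such a separation was not counted. The rule also used these values to choose atd1, so nothing is read from the separation.

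In wt the tethered cells had the higher level over all of atd1, and in clr3-CDx2 the difference had the same sign and was smaller. ON minus OFF was 0.24 ± 0.26 in clr3-CDx2, above 0 at 6 of 7 probes, and 1.04 ± 0.23 in wt, above 0 at all 7. In wt this is 2.05-fold and rank 13 of 4600, while in clr3-CDx2 it is 1.18-fold and rank 795. atd1 is thus the 1 member of 2 past 1.5-fold higher in wt, where 2.37% of genes were, and neither member is past it in clr3-CDx2, where 1.54% were higher. The rule used these contrasts, so nothing is read from the shares. With normexp background correction the wt difference at atd1 was 0.48 and no longer past 1.5-fold, so the only call of a member within a genotype as reported is lost there. The clr3-CDx2 difference at atd1 was 0.10 with normexp. The gap between genotypes was -0.80 ± 0.18, rank 4593 of 4600, where 1.24% of genes were at least 1.5-fold lower, and with normexp it was -0.38 and likewise short of 1.5-fold. It differs from ctt1 in that no change of sign is involved. Genes above 0 in both genotypes with wt at least 1.5-fold higher numbered 13 (0.283%). The rule chose atd1 by this contrast, so nothing is read from that share.

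Set between genotypes, clr3-CDx2 minus wt at atd1 was -0.27 ± 0.16 in ON cells, below 0 at all 7 probes. In OFF cells it was 0.52 ± 0.10, above 0 at all 7 probes and rank 38 of 4600. Neither passed 1.5-fold, and again the arrays are the same 4. The ON difference lay in the input channel, with 0.01 in Cy5 and 0.28 in Cy3, while the OFF difference lay in the ChIP channel, with 0.48 in Cy5 and -0.05 in Cy3. The OFF difference was 0.18 with normexp and 0.63, past 1.5-fold, with arrays scaled to equal spread.

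**Figure D2:**
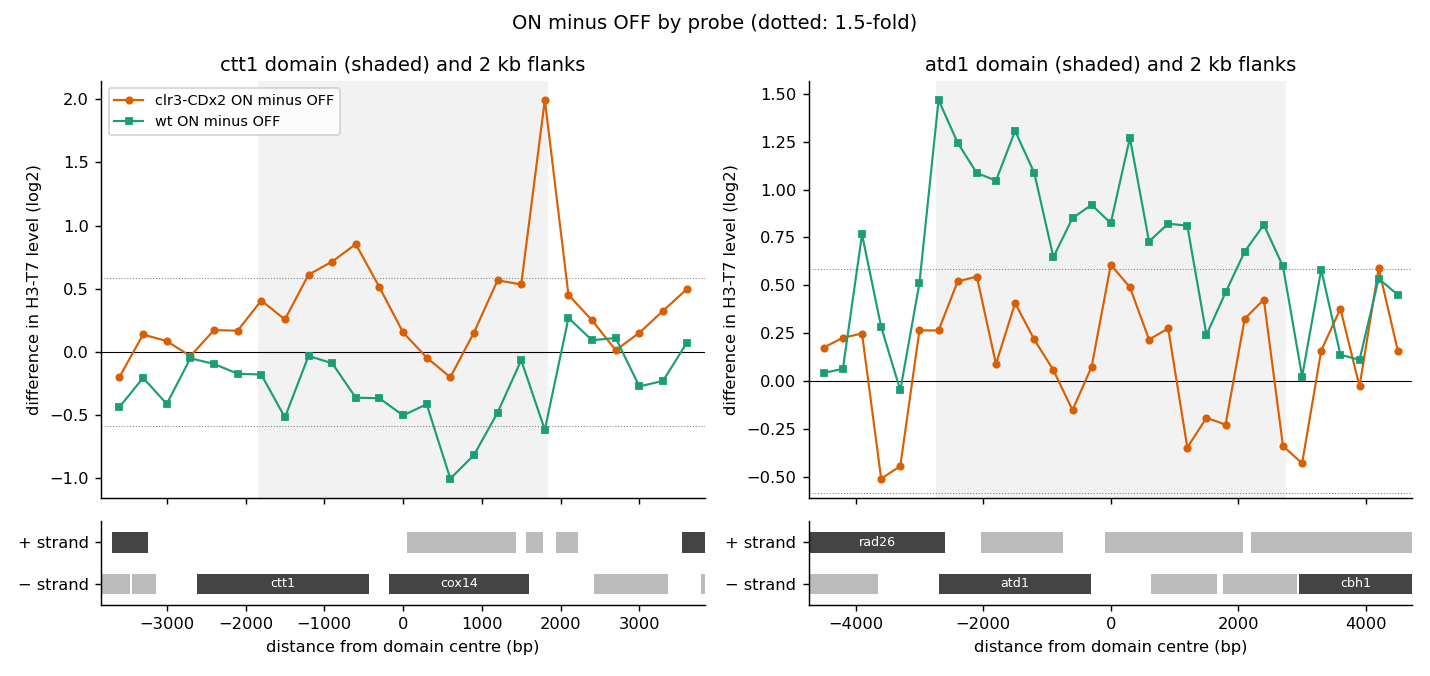
ON minus OFF in H3-T7 level (log2) of each probe in the ctt1 (left) and atd1 (right) windows for clr3-CDx2 and wt, against distance from the domain centre in bp, with dotted lines at 1.5-fold. Over the ctt1 domain the clr3-CDx2 points lie above those of wt at all 13 probes. Over the atd1 domain they lie below those of wt at all 19. Both domains were chosen by this contrast.

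The atd1 domain reached beyond the gene on the upstream side. Over its 19 probes the level was -0.25 ± 0.36 on clr3-CDx2 ON and -0.42 ± 0.39 on clr3-CDx2 OFF, against 0.04 ± 0.45 on wt ON and -0.85 ± 0.49 on wt OFF. ON minus OFF was 0.17 ± 0.31 in clr3-CDx2 and 0.89 ± 0.31 in wt. In wt all 19 probes were above 0, from 0.24 to 1.47, and 17 were past 1.5-fold. In clr3-CDx2 14 of 19 were above 0, from -0.35 to 0.61, and 1 was past 1.5-fold. The gap was -0.72 ± 0.28, below 0 at all 19 probes. Of the 130 probes within 20 kb either side, domain left out, 5 were past 1.5-fold higher in wt and 9 in clr3-CDx2. The domain was chosen by these contrasts, so nothing is read from its counts.

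The lowest levels of the atd1 window on each array lay at the start of the gene. The probe 13 bp upstream of the annotated start read -1.07 on clr3-CDx2 ON and -1.14 on clr3-CDx2 OFF, against -0.92 on wt ON and -1.84 on wt OFF. The next probe upstream read -0.69 and -1.29 on clr3-CDx2 ON and OFF, against -0.90 and -1.73 on wt ON and OFF. The lowest probe of each array was thus 1 of these 2 neighbours. By the placement used, the farther upstream of the 2 lies in SPNCRNA.989 (I:4455878-4458045, plus strand). Over its 7 probes SPNCRNA.989 had an ON minus OFF difference of 0.12 in clr3-CDx2 and 0.74 in wt. These 7 include that neighbour, with 0.61 and 0.82. The antisense transcript SPNCRNA.4009 lies within atd1 and had 0.19 in clr3-CDx2 and 1.02 in wt, which on this array is the value of the atd1 probes it shares.

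rad26, the partner of the checkpoint kinase Rad3, overlaps the 3′ end of atd1, and its 7 probes in the window had an ON minus OFF difference of 0.03 in clr3-CDx2 and 0.44 ± 0.54 in wt (SD over 7 probes). The 1 of these inside the domain had the largest wt difference of the domain, 1.47, and the other 6 averaged 0.27. cbh1, which encodes a CENP-B-like DNA-binding protein, had 0.14 in clr3-CDx2 and 0.31 in wt over 6 probes. The probe just outside the domain at the rad26 edge had a wt difference of 0.51, beside the 1.47 just inside. At the cbh1 edge they were 0.60 inside and 0.02 outside. Since the domain was chosen by this contrast, no boundary is read from these steps. Within 20 kb either side, 130 probes averaged 0.13 in clr3-CDx2 and 0.11 in wt.

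The shape of the level along the window ran in parallel between arrays at atd1, and less so at ctt1. Over the 31 probes of the atd1 window Pearson's r between pairs of arrays ran from 0.747 to 0.925. Over the 25 of the ctt1 window it ran from 0.228, between clr3-CDx2 OFF and wt OFF, to 0.868, between clr3-CDx2 ON and wt ON. Without the last probe of the domain the lowest ctt1 value was 0.477 and the highest 0.884. These are descriptions over neighbouring probes that share fragments and base composition.

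Input signal also differed between arrays, so each ratio was split into its channels, each set to an array median of 0. In the ctt1 domain ON minus OFF was 0.23 in Cy5 and -0.25 in Cy3 in clr3-CDx2. Without the last probe of the domain, whose own Cy3 difference was -1.52, these were 0.22 in Cy5 and -0.14 in Cy3. In wt it was -0.55 in Cy5 and -0.11 in Cy3, and the ChIP channel alone was lower by more than the ratio. In the atd1 domain ON minus OFF was 0.28 in Cy5 and 0.13 in Cy3 in clr3-CDx2, and 0.76 in Cy5 and -0.11 in Cy3 in wt. Over the atd1 gene alone, Cy3 in wt was -0.30 and Cy5 0.72. The gap between genotypes was 0.78 in Cy5 and -0.14 in Cy3 at ctt1 (0.76 and -0.02 without the last probe), and -0.48 in Cy5 and 0.24 in Cy3 at atd1. The part of input differences in the ratio was not tested further.

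**Figure D3:**
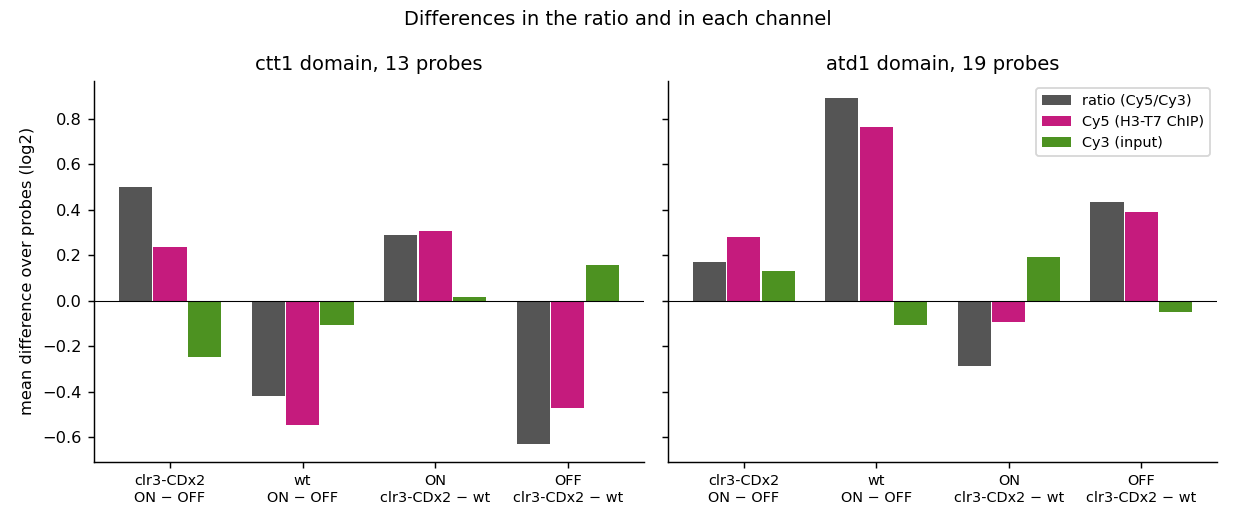
Mean difference (log2) over the probes of the ctt1 domain (13 probes, left) and the atd1 domain (19 probes, right) in the ratio, in Cy5 (H3-T7 ChIP) and in Cy3 (input), for the 4 pairs of arrays. Bars are means over probes with no error, since each group is 1 array. At ctt1 in clr3-CDx2 the Cy5 bar is 0.23 and the Cy3 bar -0.25 (0.22 and -0.14 without the last probe of the domain), while at atd1 in wt Cy5 (0.76) makes up most of the ratio (0.89).

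Genes with the most similar pattern were sought by the distance between the 4 levels after each gene was centred on its own mean, over 4 arrays only. Closest to ctt1 were SPAC750.01, csn4 (a COP9 signalosome subunit), arb1 (an Argonaute-binding protein of the RNA interference pathway), spi1 (the Ran GTPase) and sno1, at distances of 0.0748 to 0.0961 against a median of 0.422 over all genes. Their ON minus OFF differences ran from 0.33 to 0.50 in clr3-CDx2 and from -0.26 to -0.12 in wt. Closest to atd1 were SPAC1F8.08, pmp20 (a peroxiredoxin-like protein), erd2 (the receptor that returns proteins to the endoplasmic reticulum), eta2 and pfl3 (a cell surface glycoprotein), at 0.110 to 0.188 against a median of 0.791. Their differences ran from 0.10 to 0.32 in clr3-CDx2 and from 0.79 to 1.05 in wt. Both sets were picked by this distance, so differences near those of ctt1 and atd1 follow from the choice. The absolute levels of the genes closest to atd1 were not like its own. On wt OFF they were -0.40 to 0.30, where atd1 had -1.08.

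**Figure D4:**
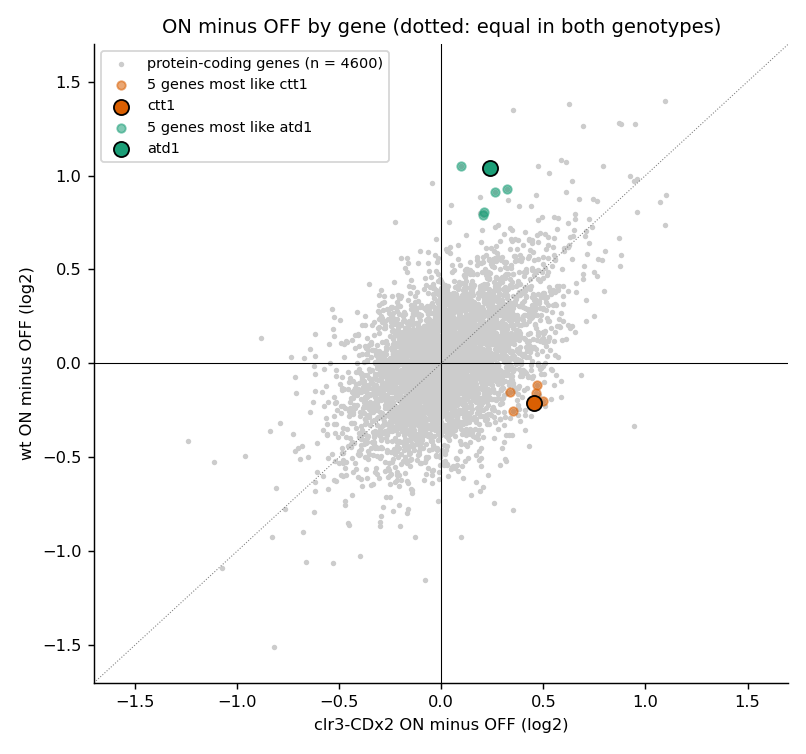
ON minus OFF (log2) in clr3-CDx2 (horizontal) and wt (vertical) for 4600 protein-coding genes, with ctt1, atd1 and the 5 genes most like each marked. ctt1 lies right of 0 and below 0 (0.45 and -0.21), and atd1 lies near the top (0.24 and 1.04). The dotted line marks equal differences.

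Other stress genes were taken in 4 lists of 78 names, 70 of them measured. Of the 18 measured core genes under Sty1 and Atf1, 2 were at least 1.5-fold higher in ON cells in clr3-CDx2 and 3 in wt, where 1.54% and 2.37% of all genes were, and none was lower. These were lsd90 (0.95 in clr3-CDx2 and 1.28 in wt), rds1 (0.63 and 0.67) and, in wt, gpd1 (0.43 and 0.66), a glycerol-3-phosphate dehydrogenase. With arrays scaled to equal spread, rds1 (0.44 in clr3-CDx2 and 0.48 in wt) and gpd1 (0.45 in wt) were short of 1.5-fold, and so was rds1 without multiplicative detrending (0.54 and 0.58). The list median was 0.38 in clr3-CDx2 and 0.17 in wt, where all genes had 0.0126 and -0.00208. In this list 16 of 18 genes were above 0 in clr3-CDx2 and 16 of 18 in wt, where 2416 and 2285 of all 4600 genes were. The signs seen at ctt1 were shared by cta3, a cation-exporting ATPase gene (0.54 in clr3-CDx2 and -0.19 in wt), and by srk1, a kinase gene downstream of Sty1 (0.22 and -0.20). In ON cells cta3 was higher in clr3-CDx2 than in wt by 0.96.

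Of the 13 measured genes of peroxide and superoxide defence, none was past 1.5-fold in clr3-CDx2 and 1 was in wt, pmp20 with 0.91 (0.26 in clr3-CDx2). The list median was 0.25 in clr3-CDx2 and 0.16 in wt. Of the 21 measured kinases and transcription factors of the pathway, 1 was past 1.5-fold lower in clr3-CDx2, the bZIP factor gene atf31 (-0.61, with -0.43 in wt), and none in wt. The atf31 call was lost with normexp (-0.31), without detrending (-0.45), with equal spread (-0.50) and in the uncentred deposited values (-0.58). The genes of the regulators themselves had differences of 0.05 in clr3-CDx2 and 0.00 in wt at sty1, 0.08 and 0.40 at atf1, and 0.25 and 0.19 at pap1. wis1, the kinase that activates Sty1, had -0.28 in clr3-CDx2 and 0.36 in wt.

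Of the 18 measured genes of aldehyde and alcohol metabolism, 2 were past 1.5-fold higher in clr3-CDx2, pdc201 (0.88) and adh1 (0.63). In wt adh1 was higher (1.38) and pdc102 lower (-0.93). With normexp adh1 was short of 1.5-fold in clr3-CDx2 (0.21). adh1 encodes the main alcohol dehydrogenase and the pdc genes pyruvate decarboxylases. adh1 was on the same side as atd1, with a smaller difference in clr3-CDx2 than in wt and a gap of -0.75 (-0.47 with normexp). pdc102 was on the side of ctt1, with 0.10 in clr3-CDx2 and -0.93 in wt and a gap of 1.02. Its clr3-CDx2 difference was near 0, from 0.02 to 0.21 under the alternatives. pdc102 lies close on chromosome I to SPAC750.01 (I:5555674-5556768), the gene closest in pattern to ctt1. Of other aldehyde dehydrogenase genes, atd2 had -0.06 in clr3-CDx2 and 0.27 in wt, and atd3 -0.12 and -0.23.

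**Figure D5:**
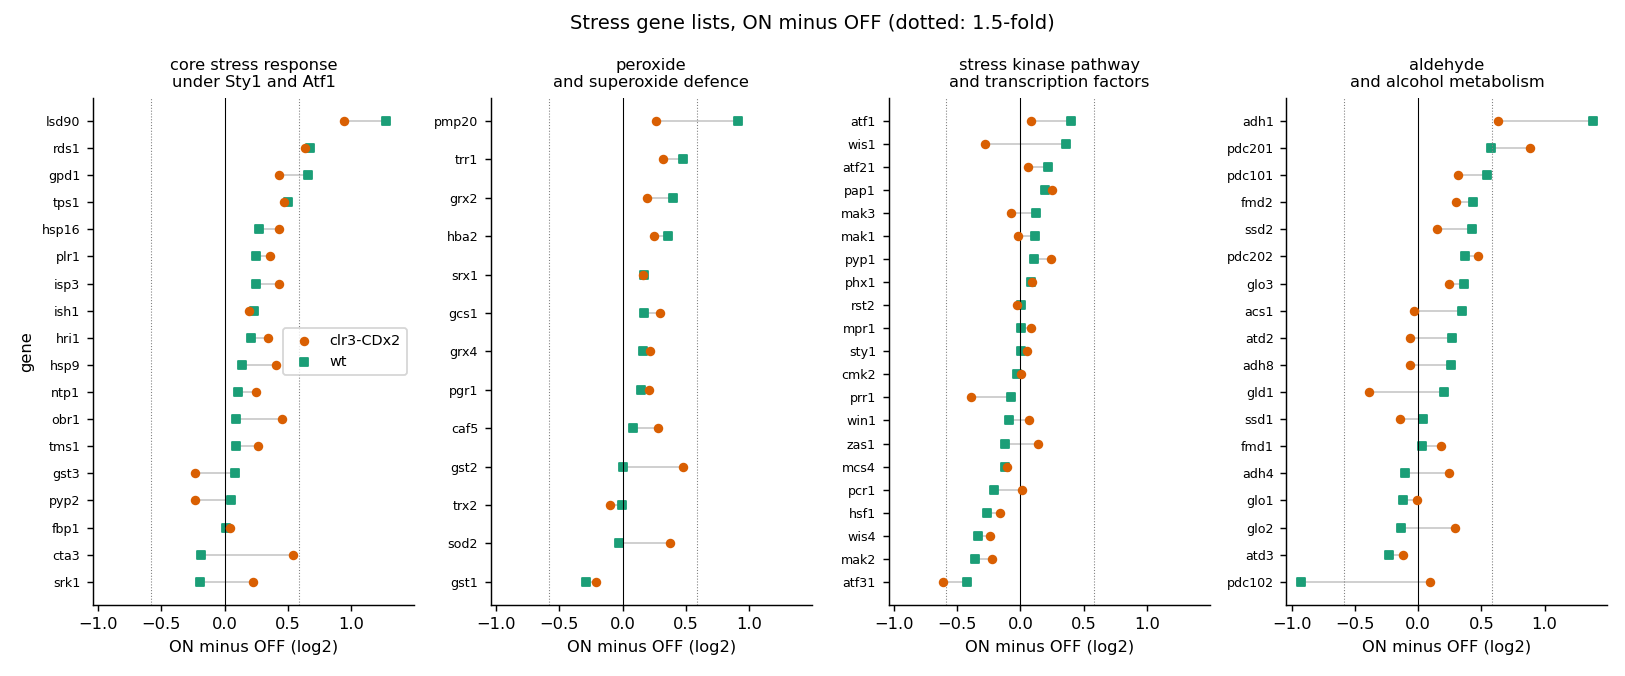
ON minus OFF (log2) of the measured genes of 4 stress lists in clr3-CDx2 (circles) and wt (squares), 1 row per gene and 1 point per pair of arrays, with dotted lines at 1.5-fold. lsd90, pmp20 and adh1 are the topmost in wt in their lists, and pdc102 lies farthest to the left in wt (-0.93) beside 0.10 in clr3-CDx2.

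Over the 4 lists together, 4 of 70 genes passed 1.5-fold upwards and 1 downwards in clr3-CDx2, where all genes gave 1.54% and 0.783%. In wt 5 were higher and 1 lower, where all genes gave 2.37% and 1.65%. Between genotypes in ON cells 1 was higher (cta3) and 2 lower (adh1 and pdc101, -0.67 and -0.62, but -0.42 and -0.31 with normexp), against 0.891% and 0.522% of all genes. In OFF cells none was higher and 1 was lower (pdc102, -0.68), against 0.587% and 0.239%. The median over the 70 genes was 0.19 in clr3-CDx2 and 0.11 in wt. The genes in both directions are few, and the lists were chosen with results of these data known, so the counts are given without a test.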

How the data were processed

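H3-T7 ChIP and input DNA were hybridized as Cy5 and Cy3 to 4 arrays, 1 per group. The authors used Agilent Feature Extraction 12.0.3.1, per the file headers. The deposited intensity columns hold signals with background subtracted and scaled by a linear dye factor within the array, and were detrended multiplicatively in both channels of OFF arrays but only in Cy3 of ON arrays, per the file headers. Other deposited columns are flags of 0 or 1, per the file headers. The deposited log2 values of the series matrix equal log2 of Cy5 over Cy3 in 100% of spots within 1e-06, uncentred, with column medians of 0.0713 (clr3-CDx2 ON), 0.0480 (clr3-CDx2 OFF), 0.0482 (wt ON) and 0.0849 (wt OFF).

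From these, log2 of Cy5 over Cy3 was centred on each array's median. Of 41551 probes, 531 that any array marked as an outlier were dropped. At most 5 spots of an array were not well above background and none was saturated. A gene is the mean of probes whose midpoint lies in it, with at least 3 probes, and 4600 protein-coding genes had these. Arms were matched to ASM294v3 in windows of 800 bp, with r of 0.243 at the offset used on III left and 0.278 on I right, against 0.0688 and 0.0504 at most elsewhere. Scripts used Python 3.11.15, numpy 2.4.6, pandas 2.3.3, biopython 1.88, matplotlib 3.10.9 and, for normexp, limma 3.58.1 in R 4.3.3, and were tested on simulated data.

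With 1 array per group the number of arrays limits the precision and no test was made. A gene is called at 1.5-fold. Members and lists were chosen with earlier results of these data known. Named genes are ctt1, atd1, annotated genes in their windows, the 5 genes most like each, list genes past 1.5-fold in any of the 4 pairs of arrays, and up to 3 others per list nearest the top and bottom of the wt difference. The list genes sty1, pap1, atd2 and gld1 fall outside this rule and were named after their values were seen. The 78 listed names gave 76 distinct loci in ASM294v3, since gsa2 was not matched and atd3 and meu8 are the same locus, and 70 loci had enough probes. Within the lists glo3, hba2 and caf5 are annotated in ASM294v3 with functions other than those that name their lists. hba2 and caf5, both counted under peroxide and superoxide defence, are annotated as transporters. Alternatives changed the background correction, detrending, scale, centring, outlier spots, probes by name, summary, extent, gene placement, threshold and probes per gene. The growth text names the allele cdc22-25 where the genotype says cdc25-22. Normexp used median signals, the mean not being among the columns.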

Additional observations from a re-analysis of the deposited data

Results flagged for a closer look

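In 1 domain and at 10 named protein-coding genes, ON minus OFF had opposite signs in clr3-CDx2 and wt with a gap of at least 1.5-fold between them. Each sign rests on 1 pair of arrays, and the difference was not tested. The gap, clr3-CDx2 minus wt, was 0.92 in the ctt1 domain, 0.66 at ctt1 and 0.74 at cox14. At cox14 the clr3-CDx2 mean of 0.19 had an SD over probes of 0.31, with 4 of 6 probes above 0, so its sign is not firm. The gap was 0.62 at SPAC750.01, 0.61 at csn4, 0.70 at spi1 and 0.59 at sno1, which were named because their pattern is like that of ctt1, so their signs follow from that choice. In the stress lists it was 0.73 at cta3, -0.64 at wis1, 1.02 at pdc102 and -0.59 at gld1, the glycerol dehydrogenase gene. pdc102 and SPAC750.01 lie close together on chromosome I. Over all genes, clr3-CDx2 above 0 with wt below 0 and a gap of at least 1.5-fold was met by 66 of 4600 genes (1.43%), and the reverse by 40 (0.87%).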

How the results depend on the processing

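Under 13 alternatives at ctt1 and 12 at atd1, each of the 10 domain differences kept its sign. With normexp background correction the ctt1 domain had an ON minus OFF difference of -0.65 in wt, and clr3-CDx2 minus wt was -0.99 in OFF cells. Taking the gene body in place of the domain gave -0.21 and -0.39, and adding the 2 kb flanks gave -0.27 and -0.31, with a gap between genotypes of 0.61. At atd1 normexp gave 0.51 for wt ON minus OFF, 0.20 for clr3-CDx2 minus wt in OFF cells and -0.40 for the gap, all short of 1.5-fold. Probes whose name ends in R and the other probes, split after seeing the data, gave gaps of 1.08 and 0.73 at ctt1 and of -0.73 and -0.71 at atd1. Counts of list genes past the threshold were 5 for clr3-CDx2 ON minus OFF, 6 for wt ON minus OFF, and 3 and 1 for clr3-CDx2 minus wt in ON and OFF cells. In that order they were 13, 12, 6 and 4 with normexp, 17, 15, 8 and 6 at 1.3-fold, and 0, 2, 0 and 0 at 2-fold. Without multiplicative detrending the count for clr3-CDx2 ON minus OFF was 3, and with arrays scaled to equal spread it was 3, and 2 for clr3-CDx2 minus wt in OFF cells. The gaps at wis1 and gld1 were short of 1.5-fold with genes moved by 100 bp to the right (-0.57 and -0.51) and in the uncentred deposited values (-0.58 and -0.53), as was gld1 without detrending (-0.58). Also short of it were the gaps at SPAC750.01 with genes moved by 100 bp to the right (0.48) and at csn4 without detrending (0.55). The cause was not tested, except that a lower or higher threshold passes more or fewer genes by construction. Of the values of single genes, 78 were labelled as moved, 1227 as the same and none as reversed. Even so, some values near 0 changed sign. The wt ON minus OFF difference at sno1 (-0.12) kept its sign in 8 of 9 alternatives and reached 0.02. At lsd90, clr3-CDx2 minus wt in ON cells (-0.03) kept its sign in 8 of 10 and reached 0.67. A label of moved does not mean a move beyond the SD over probes. At cbh1, clr3-CDx2 ON minus OFF had 3 moved values. All lay from 0.11 to 0.37 around 0.14, with an SD over probes of 0.35. No paired analysis was possible because each group is 1 array. No replicate could be left out for the same reason. At most 5 spots of an array were not well above background, yet the values above moved with normexp. That alternative started from median signals, not from the dye-scaled and detrended ones, so background correction was not varied alone. With 1 array per group, culture, medium, chromatin preparation and tethering cannot be told apart in an ON minus OFF difference, and none was repeated. Cy5 was also detrended on OFF arrays and not on ON arrays. Without detrending, ON minus OFF in the ctt1 domain was 0.48 in clr3-CDx2 and -0.48 in wt. In the atd1 domain it was 0.19 and 0.90.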
